A study of Mus musculus with 6 samples.

Results

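The collagen genes of mouse satellite cells (SCs), the stem cells of skeletal muscle, were compared between SCs from NF-YA cKO mice, in which the NF-YA gene can be deleted, and control SCs. The deposited gene tables hold 44 genes with a collagen symbol, and 39 of them had more than 10 expected counts in at least 2 of the 6 libraries, among 17348 such genes out of 35976. Col9a1, Col9a2, Col22a1, Col6a4 and Col6a5 did not reach this level and were not tested. Col6a6 reached it through the control libraries alone. The 39 genes were grouped by the structure of their proteins into 11 fibrillar, 8 basement membrane, 4 transmembrane, 6 fibril-associated, 4 beaded filament and 6 other collagens.

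Collagens are trimers of chains with long Gly-X-Y repeats, in which each chain is encoded by its own gene and several types need chains of different genes. Fibrillar collagens form the fibrils of the muscle interstitium, type IV collagens form the network of the basement membrane under which SCs reside, and type VI collagen links the network to the interstitium and is part of the SC niche. Transmembrane collagens stay at the cell surface and can be shed. NF-Y, of which NF-YA is the DNA-binding subunit, recognizes CCAAT boxes, and the promoter of Col1a2 is a classical NF-Y target.

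The 3 NF-YA cKO libraries came from mice with floxed NF-YA alleles and the Pax7-CreERT2 transgene, so that Cre acts only in cells expressing Pax7 at the time of treatment. The 3 control libraries came from NF-YA fl/fl mice. All mice received tamoxifen (20 mg/ml), and the labels give an age of 5 to 7 weeks. After magnetic depletion of cells positive for CD31, CD45, CD11b or Sca1, the SCs were plated on Matrigel, a basement membrane extract, and collected after 4 days in growth medium. Total RNA was sequenced as stranded libraries, with 26936230 to 41118984 expected counts in each.

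An entry for the deleted NF-YA allele took 22.3% to 34.2% of the Nfya expected counts in NF-YA cKO and 0% in each NF-YA fl/fl library. The rest lay on other Nfya transcripts, and total Nfya was at 27.5 ± 0.874 CPM (SD, n = 3) in NF-YA cKO and 28.7 ± 7.20 CPM in controls, with an edgeR FDR of 0.814. Xist, transcribed from the inactive X chromosome, was at 836 to 852 CPM in NF-YA cKO and at 0.306 to 0.475 CPM in controls. The Y-linked Ddx3y was at 0.0470 to 0.0957 CPM in NF-YA cKO and at 80.9 to 88.6 CPM in controls. By these genes the NF-YA cKO libraries were female and the controls male, whereas the study's methods describe tamoxifen treatment of male mice. Differences tied to sex and to genotype can thus not be separated. One control library stood apart in its collagens: NF-YA fl/fl replicate 3 was the lowest of the 6 libraries for 25 of the 39 collagens, against 26.4% of all genes tested. In that library the median collagen was at 0.565 times the mean of NF-YA fl/fl replicates 1 and 2, and Pdgfra, a receptor that marks fibro-adipogenic progenitors, was at 21.6 CPM, against 132 and 147 CPM. Its Myod1 level, a myoblast transcription factor, was 1146 CPM against 361 and 295 CPM. The main results that rest on this library are given with and without it, and the part of other cells in its collagen levels was not tested. Leaving out a control library that is low for a gene moves the fold change of that gene down. The values, FDRs and calls without this library are therefore descriptions and no separate result. In bulk RNA, fewer cells of a type and less RNA per cell cannot be told apart.

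NF-YA cKO SCs had lower levels of 5 collagen mRNAs that passed the filter in both genotypes. Of these, Col25a1 and Col19a1 were at 150 to 231 CPM in the control libraries, below the main chains such as Col1a2. The mRNAs of the main interstitial and basement membrane chains did not pass the test. Calls rest on edgeR's quasi-likelihood test, at an FDR below 0.01 and a change of more than 1 on the log2 scale. The 5 mRNAs were Col25a1, Col19a1, Col11a2, Col26a1 and Col24a1. Of all genes tested, 7.67% were called lower, a share that keeps any gene that passed the filter only through the controls. Col6a6 was also past the thresholds, but had passed the filter only through the controls and so had to differ. With it, 6 of the 39 collagens were called lower. The counts and medians that follow include it. No collagen was called higher by edgeR, where 4.65% of all genes were. With DESeq2, 3 collagens were called higher, Col18a1, Col28a1 and Col8a2. At an FDR under 0.05 with the same fold limit, 5 collagens were higher (Col18a1, Col4a6, Col27a1, Col28a1 and Col8a2) and 7 were lower, beside 6.7% and 11.7% of all genes. All NF-YA cKO libraries lay above all controls for 8 collagens and below them for 9, beside 29.1% and 26.2% of all genes. Over the 39 collagens the median log2 fold change was 0.07, and over all genes tested -0.02. Without NF-YA fl/fl replicate 3, which was singled out for its low collagens, the median over the collagens was -0.32. In that fit 7 were called lower and 1 was called higher, beside 9.81% and 4.97% of all genes. The move to the lower side was largely set by the choice of library. Col12a1 joined the lower ones and Col28a1 was the higher one.

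**Figure D1:**
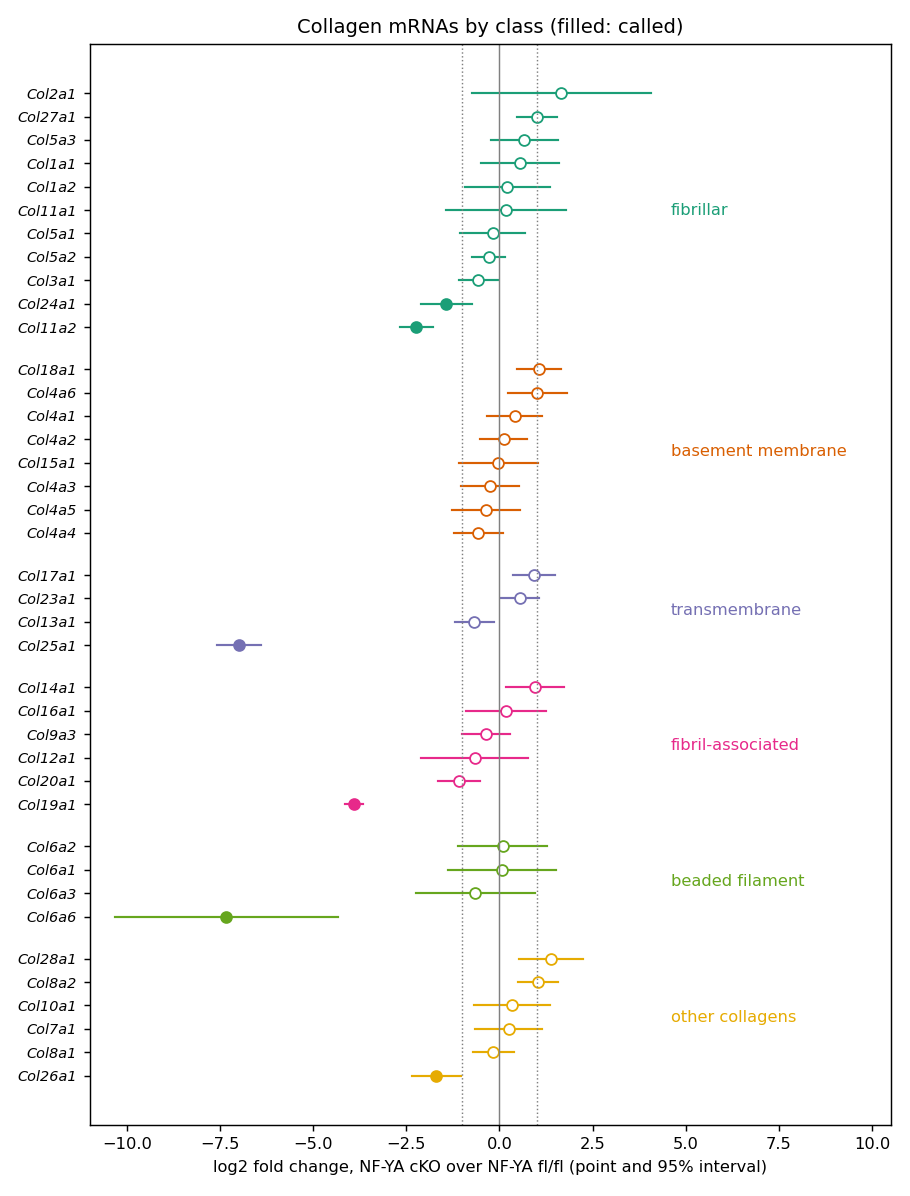
Log2 fold change of each tested collagen mRNA in NF-YA cKO over NF-YA fl/fl (x axis), by class, with the 95% interval as a line; filled points were called and dotted lines mark log2 fold changes of -1 and 1. The 6 filled points all lie on the lower side, with Col6a6, Col25a1 and Col19a1 farthest from 0; the Col6a6 value is fitted from 1 count in NF-YA cKO and is no bound.

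Fibrillar collagens had a median log2 fold change of 0.17, with 6 of 11 above 0 and 5 below. The median was -0.34 without NF-YA fl/fl replicate 3, with 4 above 0 and 7 below. Levels are given in CPM after TMM normalization, in the order of replicates 1, 2 and 3. Col1a1 and Col1a2, the chains of type I collagen, were at 1447, 1145 and 1316 CPM and at 1429, 1287 and 1509 CPM in NF-YA cKO. In NF-YA fl/fl, Col1a1 was at 911, 1409 and 352 CPM and Col1a2 at 1503, 1763 and 398 CPM. The genotypes overlapped for both chains, and the log2 fold changes were 0.55 (95% interval -0.50 to 1.59) for Col1a1 and 0.21 (-0.93 to 1.34) for Col1a2. Without NF-YA fl/fl replicate 3 the Col1a2 value was -0.22 and that of Col1a1 was 0.16. With NF-YA fl/fl replicate 2 left out instead, they were 0.56 and 1.04.

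Col3a1, the chain of type III collagen, was at 685, 619 and 756 CPM in NF-YA cKO and 1154, 1217 and 682 CPM in controls. Its log2 fold change was -0.57 ± 0.22 (SE), with an FDR of 0.0861, and -0.79 with an FDR of 0.00138 without NF-YA fl/fl replicate 3, below the fold limit in both fits. Type V collagen nucleates the fibrils of types I and III. Its chain genes Col5a1 and Col5a2 were at 566, 528 and 588 CPM and at 1464, 1323 and 1451 CPM in NF-YA cKO. In NF-YA fl/fl the Col5a1 values were 675, 936 and 299 CPM and the Col5a2 values 2169, 1681 and 1322 CPM. Col5a3 was at 44.7, 39.5 and 35.9 CPM in NF-YA cKO and 21.7, 40.7 and 13.0 CPM in controls. None of the type V chains was called, with edgeR FDR values of 0.717, 0.26 and 0.2 for Col5a1, Col5a2 and Col5a3, and the genotypes overlapped for each. Without NF-YA fl/fl replicate 3 the log2 fold changes of Col5a1 and Col5a2 were -0.53 and -0.45, with FDR values of 0.0204 and 0.0251, and that of Col5a3 was 0.35.

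The chains of type XI collagen, a relative of type V known from cartilage, went apart. Col11a1 was at 58.7, 48.2 and 59.9 CPM in NF-YA cKO and 56.6, 83.6 and 8.01 CPM in controls, with a log2 fold change of 0.17 ± 0.68 (SE) that was -0.34 without NF-YA fl/fl replicate 3. Col11a2 (chromosome 17, 34038919 to 34066684) was at 3.44, 2.34 and 2.75 CPM in NF-YA cKO and 14.0, 13.7 and 12.3 CPM in controls. Its mean was 4.69-fold lower in NF-YA cKO (log2 fold change -2.23 ± 0.19, SE, FDR = 0.000428), and NF-YA fl/fl replicate 3 lay close to its partners. A difference between the changes of Col11a1 and Col11a2 was not tested.

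Col24a1 and Col27a1 encode fibrillar chains of a separate branch of the family. Col24a1 (chromosome 3, 145292472 to 145552013) was at 2.97, 2.36 and 2.07 CPM in NF-YA cKO and 4.70, 9.01 and 6.17 CPM in controls. Its log2 fold change was -1.43 ± 0.29 (SE, FDR = 0.00883). Over the alternative settings and left-out libraries its edgeR, DESeq2 or limma FDR lay between 3.18e-05 and 0.0567, and the call was kept in 1 of the 6 fits that left out a library. Col27a1 went the other way, at 12.1, 12.9 and 11.9 CPM in NF-YA cKO and 6.50, 7.64 and 4.21 CPM in controls, with an FDR of 0.0136 that missed the threshold. Col2a1, the chain of cartilage collagen, was at 33.1, 7.58 and 6.18 CPM in NF-YA cKO and 3.90, 10.3 and 0.509 CPM in controls. It varied too much between libraries for its log2 fold change of 1.66 to be told from 0 (95% interval -0.75 to 4.07).

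**Figure D2:**
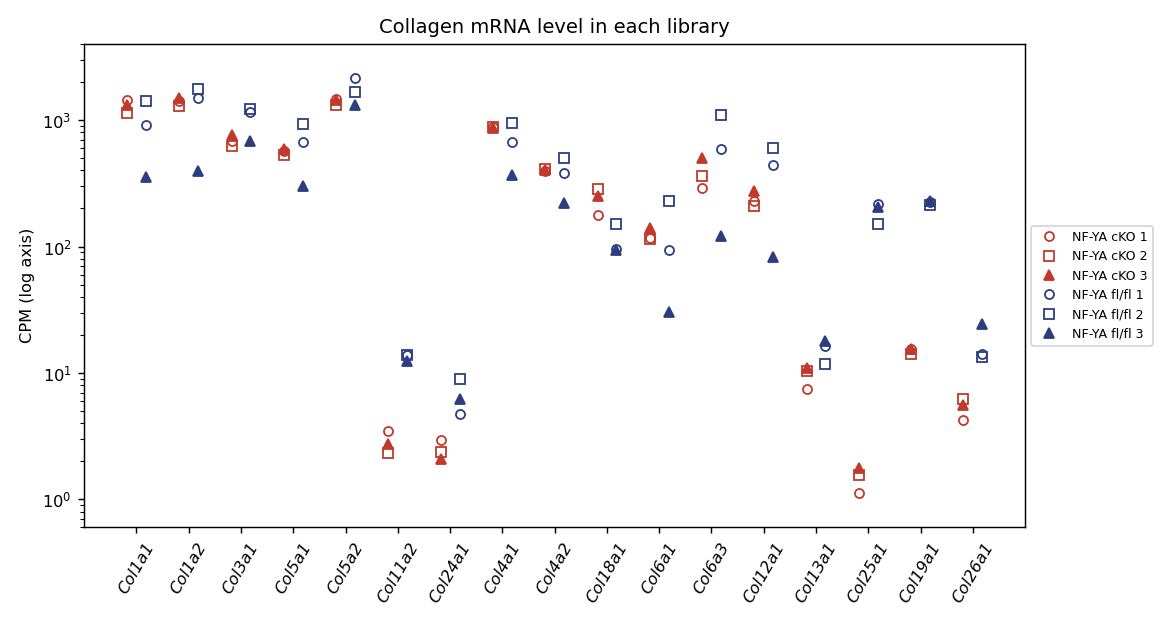
CPM (log axis) of 17 collagen mRNAs in each library, red for NF-YA cKO and blue for NF-YA fl/fl, with replicate 3 filled. NF-YA fl/fl replicate 3 lies below its partners for Col1a1, Col1a2, Col6a1, Col6a3 and Col12a1, but beside them for Col25a1, Col19a1 and Col11a2, where the genotypes are far apart.

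Basement membrane collagens had a median log2 fold change of 0.04, and none of the 8 was called. The main network chains Col4a1 and Col4a2 were at 890, 880 and 862 CPM and at 397, 407 and 399 CPM in NF-YA cKO. In NF-YA fl/fl they were at 677, 944 and 367 CPM and at 384, 505 and 223 CPM. The cKO libraries were close together and lay inside the range of the controls, with log2 fold changes of 0.40 (95% interval -0.32 to 1.13) for Col4a1 and 0.11 (-0.53 to 0.75) for Col4a2. They were 0.11 and -0.15 without NF-YA fl/fl replicate 3, where the class median was -0.17. With NF-YA fl/fl replicate 2 left out instead, Col4a1 and Col4a2 were at 0.74 and 0.39.

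The other type IV chains, which form networks of specialized basement membranes, were lower in level. Col4a3 was at 0.988, 0.652 and 1.27 CPM in NF-YA cKO and 0.879, 1.31 and 1.26 CPM in controls, and Col4a4 at 4.94, 5.19 and 6.72 CPM and 7.03, 6.21 and 11.7 CPM. Both pairs of groups overlapped. The X-linked Col4a5 was at 72.5, 49.3 and 57.2 CPM in NF-YA cKO and 110, 83.9 and 35.1 CPM in controls, again with overlap. Without NF-YA fl/fl replicate 3 its log2 fold change went from -0.35 to -0.70 (FDR = 0.0173). Its head-to-head neighbour Col4a6 was at 11.8, 6.39 and 8.13 CPM in NF-YA cKO and 5.47, 4.85 and 2.71 CPM in controls, without overlap. Col4a6 had a log2 fold change of 1.01 with an FDR of 0.0492 and was not called, and for these X-linked genes sex and genotype cannot be told apart.

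Col15a1 and Col18a1 encode proteoglycan collagens of the basement membrane zone, and the end of collagen XVIII is the source of endostatin. Col18a1 was at 177, 285 and 250 CPM in NF-YA cKO and 95, 152 and 93.8 CPM in controls. Its mean was 2.09-fold higher in NF-YA cKO without overlap (log2 fold change 1.06 ± 0.25, SE), and its FDR of 0.0157 missed the threshold. It was called higher with DESeq2, with no filter on low counts, with the replicate number as a block and without NF-YA fl/fl replicate 2. Col15a1 was at 36.0, 43.7 and 48.7 CPM in NF-YA cKO and 39.6, 73.4 and 18 CPM in controls, with overlap.

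Transmembrane collagens included the collagen with the largest change among those detected in both genotypes. Col25a1 (chromosome 3, 130180358 to 130599884) encodes collagen XXV, which muscle cells present to ingrowing motor axons and whose shed form binds amyloid in brain. It was at 1.12, 1.57 and 1.76 CPM in NF-YA cKO and 217, 150 and 205 CPM in controls, from 35 to 75 and 5035 to 6042 counts. Each control library was far above each cKO library, and the mean was 129-fold lower in NF-YA cKO (log2 fold change -6.99 ± 0.25, SE, FDR = 3.5e-05). The call was kept in 7 other fits that changed the test, scaling, filter, unit or block and in all 6 fits that left out a library, with log2 fold changes between -7.16 and -4.64.

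The other transmembrane collagens changed less. Col13a1, the collagen of the neuromuscular junction, was at 7.43, 10.3 and 11.0 CPM in NF-YA cKO and 16.4, 11.8 and 17.8 CPM in controls, with a log2 fold change of -0.68 (FDR = 0.0465) that did not reach the fold limit. Col17a1, the hemidesmosomal collagen of epithelia, was at 1.91, 1.69 and 1.72 CPM in NF-YA cKO and 0.765, 1.07 and 0.950 CPM in controls. Col23a1 was at 4.94, 5.04 and 4.44 CPM in NF-YA cKO and 4.13, 2.88 and 2.85 CPM in controls. Col17a1 and Col23a1 were higher in NF-YA cKO without overlap, at FDR values of 0.0211 and 0.0785, and were not called. The class median of -0.06 therefore holds genes on both sides of 0. Each of these genes other than Col25a1 was at or below 17.8 CPM.

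Among the fibril-associated collagens, which sit on the surface of fibrils, Col19a1 fell. Col19a1 (chromosome 1, 24257683 to 24587922) encodes collagen XIX, known from differentiating muscle cells of the embryo. It was at 15.5, 14.0 and 15.3 CPM in NF-YA cKO and 227, 214 and 231 CPM in controls. The replicates of each genotype lay close together, and the mean was 15-fold lower in NF-YA cKO (log2 fold change -3.90 ± 0.10, SE, FDR = 1.04e-05). The call was kept in the same 7 other fits and in all 6 fits without a library. Its neighbour Col9a1 lies 4944 bases away and was at 0.0235 to 0.357 CPM over the 6 libraries.

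Col20a1 was at 9.41, 8.01 and 10.3 CPM in NF-YA cKO and 21.7, 13.4 and 24.2 CPM in controls, without overlap, and its log2 fold change of -1.09 had an FDR of 0.0116 in edgeR. Col20a1 was called lower with DESeq2, with edgeR's filterByExpr filter, with no filter on low counts and in 1 of the 6 fits that left out a library. Col12a1, a binder of type I fibrils that is abundant in tendon and muscle interstitium, was at 230, 210 and 275 CPM in NF-YA cKO and 439, 606 and 83.3 CPM in controls. Its log2 fold change was -0.66 ± 0.61 (SE), and without NF-YA fl/fl replicate 3 it was -1.14 with an FDR of 0.00196 and was called. Col16a1 was at 89.9, 90.0 and 105 CPM in NF-YA cKO and 95.1, 128 and 30.3 CPM in controls, with overlap. Col14a1 was at 4.97 to 7.71 CPM against 2 to 4.52 CPM and Col9a3 at 0.446 to 0.588 CPM against 0.595 to 0.726 CPM. Neither of these was called.

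Type VI collagen chains, which assemble into beaded filaments, overlapped between genotypes. Col6a1 was at 117, 115 and 140 CPM in NF-YA cKO and 94.5, 230 and 30.2 CPM in controls. Col6a2 was at 67.9, 62.6 and 82.4 CPM and at 55.8, 121 and 24 CPM, and Col6a3 at 290, 361 and 503 CPM and at 594, 1090 and 121 CPM. NF-YA fl/fl replicate 3 was the lowest and replicate 2 the highest library for each of the 3 chains. Their levels in NF-YA fl/fl replicate 3 were 0.186, 0.272 and 0.144 times the mean of its partners. None was called, and without that library the log2 fold changes of Col6a1, Col6a2 and Col6a3 were -0.39, -0.32 and -1.13, the last with an FDR of 0.0193. With NF-YA fl/fl replicate 2 left out instead, they were 0.99, 0.82 and 0.10.

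Col6a6 (chromosome 9, 105689417 to 105828246) had 0, 0 and 1 counts in NF-YA cKO and 112, 38 and 17 counts in NF-YA fl/fl. Since it passed the filter only through the controls, nothing is read from its test. The ratio of the pooled levels, NF-YA fl/fl over NF-YA cKO, was 216 with a 95% counting interval of 38.2 to 8574, which covers counting error only. Col6a5, a similar gene beside it, was at 0.118 CPM or less in every library, and how RSEM split reads between both is an estimate.

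Of the other collagens, Col26a1 (chromosome 5, 136741759 to 136883376) was called lower. It was at 4.27, 6.25 and 5.55 CPM in NF-YA cKO and 14.2, 13.3 and 24.5 CPM in controls, a 3.24-fold lower mean (log2 fold change -1.69 ± 0.28, SE, FDR = 0.00446). The call was kept in 2 of 6 fits without a library, with an FDR up to 0.0205. Col7a1, which builds the anchoring fibrils of skin, was at 14.4, 20.8 and 18.8 CPM in NF-YA cKO and 13.0, 24.4 and 8.04 CPM in controls. The network-forming Col8a1 was at 159, 149 and 174 CPM and at 185, 237 and 119 CPM. Both overlapped. Col8a2 was at 3.44 to 4.44 CPM in NF-YA cKO against 1.56 to 2.26 CPM, and Col28a1 at 5.20 to 9.39 CPM against 1.93 to 4.31 CPM. Both were higher without overlap, with FDR values of 0.0124 and 0.0234. Col10a1, known from hypertrophic cartilage, was at 2.85 to 7.62 CPM against 2.61 to 4.28 CPM.

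To compare the classes by abundance, TPM values, which are scaled to transcript length, were summed. Fibrillar chains made up 65.7% to 69.9% of the collagen TPM in NF-YA cKO and 64.3% to 69.7% in NF-YA fl/fl, and basement membrane chains 18.4% to 21.3% and 13.4% to 15.8%. The transmembrane sum was 4.24, 4.55 and 5.40 TPM in NF-YA cKO and 40.4, 34.1 and 32.2 TPM in NF-YA fl/fl, 0.266% to 0.362% against 1.32% to 4.44% of all collagen TPM. Col25a1 alone held 34.2, 28.8 and 26.9 TPM of it in NF-YA fl/fl. Without Col25a1 the sum was 4.06, 4.33 and 5.10 TPM against 6.19, 5.34 and 5.23 TPM. All collagens together were at 1597, 1258 and 1604 TPM in NF-YA cKO and 1772, 2589 and 725 TPM in NF-YA fl/fl, and the genotypes overlapped. By mean TPM in NF-YA cKO, the 7 most abundant mRNAs were Col1a2, Col1a1, Col5a2, Col4a1, Col3a1, Col5a1 and Col4a2. They held 75% to 82.4% of the collagen TPM in every library. In the NF-YA fl/fl mean, Col6a3 at 75.5 TPM lay above Col4a2 at 70.3 TPM.

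**Figure D3:**
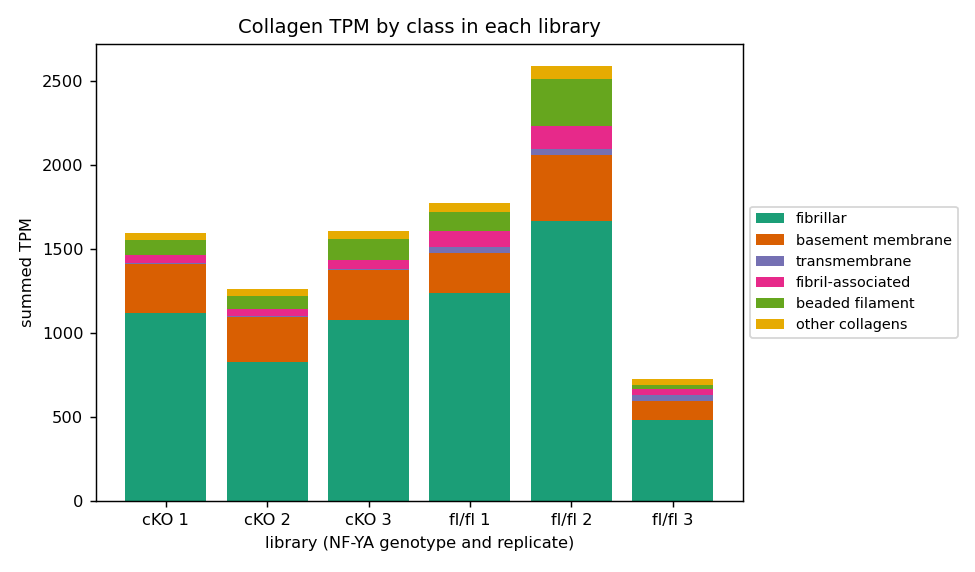
Summed TPM of the collagen classes (stacked bars) in each library. The total is between 1258 and 1604 TPM in NF-YA cKO and between 725 and 2589 TPM in NF-YA fl/fl, and the transmembrane band is thinner in NF-YA cKO.

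Because partner chains come from different genes, the TPM ratios of 5 pairs of partner chains were compared. The Col4a1 to Col4a2 ratio was 2.19, 2.11 and 2.11 in NF-YA cKO and 1.72, 1.83 and 1.62 in NF-YA fl/fl. The genotypes did not overlap, but the exact permutation test gave p = 0.1, the smallest that 3 against 3 allows, and 0.5 after adjustment over the 5 pairs. These genes are transcribed in opposite directions from start sites 84 bases apart. Col1a1 to Col1a2 was 0.888, 0.780 and 0.765 in NF-YA cKO and 0.531, 0.701 and 0.776 in NF-YA fl/fl. Col5a1 to Col5a2 was 0.311 to 0.325 against 0.180 to 0.447. Col6a1 to Col6a2 was 1.61 to 1.74 against 1.2 to 1.81, and Col6a3 to Col6a2 was 1.57 to 2.23 against 1.90 to 3.85. The groups overlapped for the latter 4 pairs, with adjusted p of 0.5 or 0.7 in exact permutation tests.

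**Figure D4:**
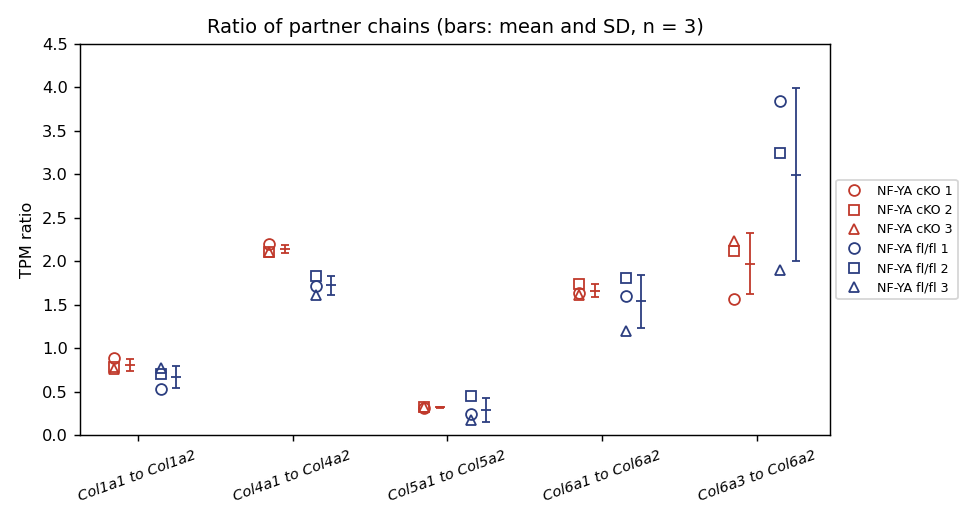
TPM ratio of partner chains in each library (points) with mean and SD of 3 libraries (bars), red for NF-YA cKO and blue for NF-YA fl/fl. For Col4a1 to Col4a2 the 3 NF-YA cKO values, 2.11 to 2.19, lie above the 3 NF-YA fl/fl values, 1.62 to 1.83, and for the other pairs the genotypes overlap.

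Transcripts were compared by the percent of a gene's TPM that RSEM assigned, in 17 collagen genes with at least 2 transcripts at 10% or more in 3 libraries. For each gene the transcript with the largest difference was taken, so that its p is too small and its value is a description. For 4 genes the genotypes did not overlap, Col25a1, Col13a1, Col11a2 and Col16a1, or 23.5% of the 17, beside 33.7% of 6517 genes whose transcript was chosen the same way. Each had an exact permutation p of 0.1 and an adjusted p of 0.425. The 7334-nt transcript of Col25a1 took 58.6%, 55.8% and 57.0% in NF-YA fl/fl (2837 to 3478 counts) and 0% in each NF-YA cKO library, where the whole gene had 35 to 75 counts. For Col13a1 a 2972-nt transcript took 39.6%, 54.9% and 52.5% in NF-YA cKO and 0%, 7.76% and 15.2% in NF-YA fl/fl. A 5166-nt transcript of Col13a1 took 0% to 0.63% in NF-YA cKO and 15.6% to 24% in NF-YA fl/fl. These shares describe single transcripts and are no result about the transmembrane class, and Col25a1 had few counts in NF-YA cKO. In Col11a2 a 6541-nt transcript took 0% to 5.86% in NF-YA cKO against 11.2% to 35.5%, and in Col16a1 a 5195-nt transcript took 20.4% to 25.7% against 0% to 16.4%. RSEM's split of reads between transcripts of 1 gene is an estimate.

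**Figure D5:**
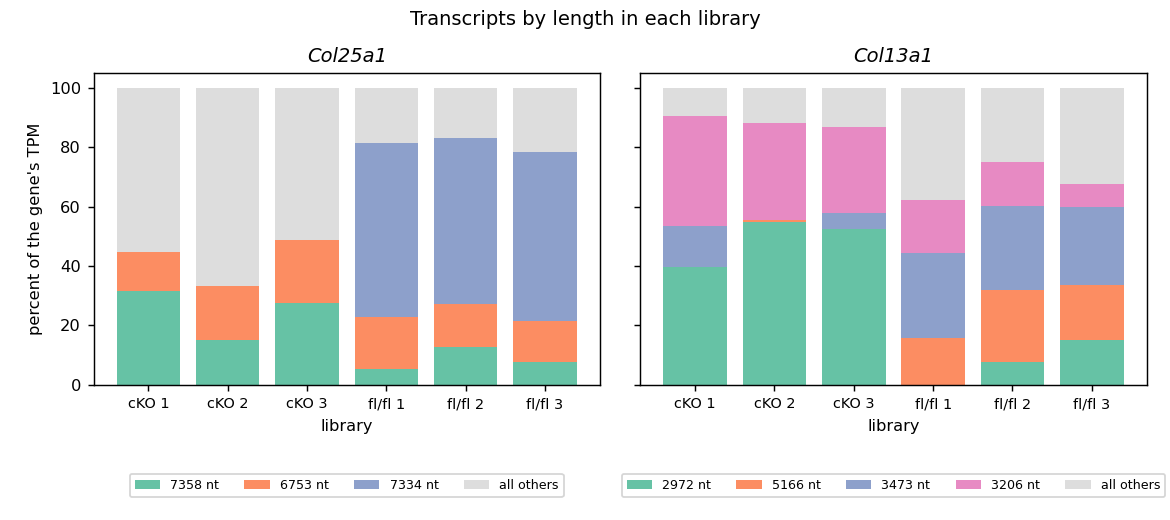
Percent of the TPM of Col25a1 (left) and Col13a1 (right) on each major transcript, named by length, in each library. The 7334-nt band of Col25a1 is absent in NF-YA cKO and covers 55.8% to 58.6% in NF-YA fl/fl, and the 2972-nt band of Col13a1 is wider in NF-YA cKO.

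Since NF-Y recognizes CCAAT, the RefSeq promoter windows (GRCm38.p6, 250 bases before and 50 after the start) were searched for CCAAT on both strands. A window was matched to 31 of the 39 genes. CCAAT was in the windows of 11 of these 31, or 35.5%, and of 41.1% of all genes in the table. A longer form, CCAAT followed by CA, CG, GA or GG, was in 6 of 31 (19.4%) and in 19.4% of all genes. The 5 collagens called lower that had a window were Col25a1, Col19a1, Col11a2, Col24a1 and Col6a6, while Col26a1 had no window. Of these, Col6a6 had passed the filter only through the controls. Among the 5, 1 held CCAAT, Col25a1, with its first base 191 bases upstream of the start of its window. That start lies 487 bases inside the RefSeq gene, so the motif is inside the gene, and no GENCODE transcript of Col25a1 held bases 21 to 50 after it. None was found in the window of Col19a1, whose start lies 485 bases inside the RefSeq gene. CCAAT was also present in windows of collagens that were not called. Short stretches round it are shown for Col25a1, which changed most among the collagens that passed the filter in both genotypes, and for fibrillar and network chains that were not called, with CCAAT or, on the opposite strand, its reverse complement ATTGG in capitals.
Col25a1, chr3:130180642-130180670, plus strand: ccaagctcctctCCAATcacagtggttgc
Col1a2, chr6:4505497-4505525, plus strand: aaaagaatggaaCCAATttaagaagcccc
Col1a2, chr6:4505606-4505634, plus strand: cctagccctcccATTGGtggagacgtttt
Col5a3, chr9:20815173-20815201, minus strand: gatctcagccagCCAATcagcgcgtggtg
Col11a1, chr3:114030449-114030477, plus strand: gggaggcctgtgATTGGgtatgaccttca
Col4a1, chr8:11312955-11312983, minus strand: tgcttgcccgggATTGGcgagccaagggg
Col4a2, chr8:11312761-11312789, plus strand: ccgaggagctccCCAATttgttggcgctg
The matches in Col25a1, Col5a3 and Col11a1 were of the longer form, as was the one at the start of Col1a2. Col5a3 and Col11a1 had log2 fold changes of 0.67 and 0.17 and were not called. The matches describe the windows and not binding.

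The enzymes and partners of collagen were followed in 5 lists of 62 genes, all tested, of which 2 were called higher and 2 lower, beside 4.65% and 7.67% of all genes tested. In the list of 15 hydroxylation and glycosylation genes none was called. Of 11 folding and export genes, Tmem38b, an ion channel of the endoplasmic reticulum needed for collagen modification, was called lower. It was at 9.53, 10.3 and 11.1 CPM in NF-YA cKO and 42.0, 29.7 and 57.8 CPM in controls (log2 fold change -2.07 ± 0.24, SE, FDR = 0.00135). None of the 13 genes of propeptide processing and cross-linking was called. Of 10 receptors, the integrin chain Itga10 was called lower, at 1.09 to 1.29 CPM against 2.71 to 4.37 CPM (FDR = 0.00398). Of 13 fibril-binding matrix proteins, Tnc, the matrix glycoprotein tenascin C, was called higher at 1207, 1154 and 1026 CPM against 657, 498 and 530 CPM (FDR = 0.00234). Its log2 fold change of 1.01 was at the limit, and the call was kept in 2 of 7 other fits and in 1 of 6 without a library. The proteoglycan gene Lum was called higher at 13.4 to 21.2 CPM against 0.679 to 3.98 CPM (FDR = 0.00841). The Lum call was kept in 5 of the 7 other fits and that of Itga10 in 4, each in 2 of 6 fits without a library, while that of Tmem38b was kept in all 7 and in 5 of 6.

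Without NF-YA fl/fl replicate 3, 4 of the 62 pathway genes were called higher and 16 lower, beside 4.97% and 9.81% of all genes. With all libraries 2 were called in each direction. That library was singled out for low collagens and is also low for genes such as Lox, Loxl3 and Loxl4. Leaving it out moves such genes to the lower side, so the count describes that library as much as the genotype. The lower ones then included Lox, Loxl1, Loxl3 and Loxl4, enzymes of collagen cross-linking that were named after their values were seen. Loxl2, of the same family, went the other way, at 203, 170 and 161 CPM in NF-YA cKO and 119, 121 and 34.8 CPM in controls, without overlap, and was not called (log2 fold change 0.96, FDR = 0.12 in edgeR with all libraries). Lox was at 379, 330 and 385 CPM in NF-YA cKO and 971, 782 and 198 CPM in controls. As for the type VI chains, the third control library lay below all the others.

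Marker genes of other cells were read beside these results, since lists of cell types moved with genotype. All 7 tested myocyte markers were called lower in NF-YA cKO, with a summed level of 44.1 to 123 CPM against 8193 to 10755 CPM. The 8 myoblast markers held 2 called lower, Cdh15 and Des, and a sum of 1703 to 1845 CPM against 2371 to 3995 CPM. Itga7 was also lower without overlap, while Pax7, Vcam1 and Sdc4 were higher without overlap, with log2 fold changes of 0.94, 0.86 and 0.80 below the fold limit, and the median of the list was 0.36. Col25a1 and Col19a1 were low and high in the same libraries as the myocyte sum. The same holds for every gene that was lower in NF-YA cKO without overlap, 26.2% of all genes tested. The part of myocytes in the levels of Col25a1 and Col19a1 was not tested. All 8 macrophage markers were called higher in NF-YA cKO, with a sum of 125 to 246 CPM against 4.95 to 11.3 CPM, led by Lyz2 at 101 to 203 CPM, and with Ptprc and C1qb at 0 in NF-YA fl/fl replicate 1. Of 6 Schwann cell markers, 4 were called higher, and 5 were higher in NF-YA cKO without overlap. The sums overlapped at 59.9 to 71.8 CPM and 19.1 to 72.3 CPM, where Ngfr alone held 59.3 CPM of NF-YA fl/fl replicate 3. Of the 9 tested fibroblast markers, Lum was called higher. Lum, Dcn and Col14a1 were higher in NF-YA cKO without overlap, and none was lower without overlap. Col14a1 is itself one of the collagens tested. The sums overlapped at 308 to 363 CPM and 120 to 486 CPM, with NF-YA fl/fl replicate 3 the lowest. For tenocytes, Thbs4 was called higher and Scx lower of 5 tested, with sums of 53.9 to 86.6 CPM and 47.7 to 60 CPM. Of 5 endothelial markers Kdr was called higher, with sums of 13.1 to 18 CPM against 4.14 to 8.06 CPM. Of 5 pericyte markers Abcc9 was called lower, with sums of 140 to 193 CPM against 196 to 426 CPM. Their part in the collagen levels was not tested.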

How the data were processed

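SC libraries were compared, 3 for each genotype. Reads had been mapped by the authors with bowtie2 (mm10) and assigned to transcripts by RSEM. The expected counts deposited by the authors are not normalized, and reads shared between transcripts are split by likelihood. The deposited TPM values are scaled to effective length, and the deposited transcript percent is a share of the gene's TPM. Expected counts were rounded, filtered (more than 10 in at least 2 libraries, as in the study's methods) and fitted with edgeR 4.0.16 (TMM, quasi-likelihood test, Benjamini-Hochberg over all genes) in R 4.3.3. SE is the log2 fold change divided by the root of F. On simulated counts, 193 of 200 changed genes were called among 17011, and 2 of 16811 unchanged ones. The changed genes had been given changes well past the fold limit, and genes at low CPM were not among them. How often changes near the limit or at low CPM are called was thus not simulated. Ratios and shares were compared with two-sided exact permutation tests. Alternatives used DESeq2 1.42.0 and limma 3.58.1. Coordinates are RefSeq GRCm38.p6. Plots used matplotlib 3.10.9. The deposited tables hold no comparison columns.

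The labels do not say whether replicate numbers pair the libraries or whether each library is another animal, and the main fit used no pairing. A level of 3 counts corresponded to 0.0705 to 0.115 CPM. Whether depth or the spread between libraries limits a comparison was not computed. The edgeR p-values weigh a difference against counting error and the spread between libraries together, and the permutation p-values cannot go below 0.1. Counting intervals cover counting error only.

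The genes, lists and tests were chosen with earlier results of these data known. Every tested collagen was named, with values for each library for the fibrillar, basement membrane and transmembrane ones with at least 1 CPM in the mean of a genotype, and for others called or at 10 CPM. Called pathway genes were named, up to 2 per list and direction, and the Lox family was added after its values were seen.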

Additional observations from a re-analysis of the deposited data

How the results depend on the processing

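The count of collagens called higher was 0 and became 3 with DESeq2, 2 with no filter on low counts, 5 at an FDR under 0.05, 1 with the replicate number as a block, and 0 to 3 when 1 library was left out. The count called lower was 6, Col6a6 included, and stayed within 4 to 7 in the other settings, but was 3 without NF-YA cKO replicate 1, 2 or 3 and 3 to 7 over the left-out libraries. Col25a1, Col19a1 and Col11a2 were called in each of these fits. Over all genes, limma on log2(TPM + 1) called 231 higher and 704 lower, limma on log2(TPM + 0.1) called 361 higher, and an FDR under 0.05 gave 2025 lower. Leaving out a library gave 177 to 890 higher and 523 to 1684 lower. The 4 pathway genes called became 9 with DESeq2, 2 and 1 with limma at pseudocounts of 1 and 0.1, 11 at an FDR under 0.05, 2 with the replicate block, and 0 to 20 with a library left out (0 without NF-YA cKO replicate 2, 20 without NF-YA fl/fl replicate 3). With fewer libraries the test has fewer degrees of freedom, and the cause of the other moves was not tested.

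Class medians of the log2 fold change ranged over the left-out libraries from -0.34 to 0.56 for fibrillar, -0.17 to 0.48 for basement membrane and -0.19 to 0.05 for transmembrane collagens, the extremes of the first 2 without NF-YA fl/fl replicate 3 and replicate 2. Log2 fold changes that changed sign with a library left out were those of Col10a1 (-0.31 to 0.54), Col11a1 (-0.34 to 0.78), Col15a1 (-0.41 to 0.56), Col16a1 (-0.24 to 0.59), Col1a2 (-0.22 to 0.56), Col4a2 (-0.15 to 0.39), Col5a1 (-0.53 to 0.19), Col6a1 (-0.39 to 0.99), Col6a2 (-0.32 to 0.82), Col6a3 (-1.13 to 0.10), Col7a1 (-0.065 to 0.77) and Col8a1 (-0.40 to 0.070). Col15a1 was also above 0 with limma (0.057 and 0.10) and with the replicate block (0.16). The log2 chain ratio difference changed sign for Col5a1 to Col5a2 (-0.067 to 0.59) and Col6a1 to Col6a2 (-0.036 to 0.26). Transcript shares without overlap counted 4 to 8 genes, and the difference in percent changed sign for Col14a1 (-3.93 to 18.7), Col15a1 (-0.313 to 5.48), Col2a1 (-11.1 to 25.6), Col4a5 (-3.27 to 10.01), Col5a3 (-3.65 to 5.91) and Col6a3 (-0.338 to 8.95). None of these was past its threshold.

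Same-numbered libraries deviated from their genotype means with correlations of 0.21, -0.10 and 0.05, and libraries of unlike number with -0.18 to 0.15. Deviations within a genotype cancel out, so these values cannot decide whether equal numbers mark a shared preparation. With the replicate block, 625 genes were higher and 947 lower, against 806 and 1331.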
